A study of Mus musculus with 6 samples.

Results

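The genes described here are decorin and the main small leucine-rich proteoglycans of connective tissue, Dcn, Bgn, Lum, Fmod, Ogn, Aspn and Prelp, in keratinocytes from mouse tail skin. The 7 members, of 19618 genes in the count table, were found by gene symbol. The set was chosen by the difference of Dcn between the knockout and control libraries, so all knockout-to-control values of the members are given as descriptions, without a test. The question was whether Dcn stood higher alone in its family. RNA sequencing compared 3 libraries from mice with an epidermal knockout of Gpr161 with 3 control libraries, all from animals 4 months of age. The knockout mice were K14cre positive and homozygous for floxed Gpr161. K14cre drives Cre recombinase from a keratin 14 promoter, which is active in basal keratinocytes of the epidermis and hair follicle. The labels of the controls name no K14cre. Among the controls, 1 mouse was homozygous and 2 were heterozygous for the floxed allele. The column names give the group and a tag but no sample title, so libraries are named by tag (DE679, DE685 and DE688 for the knockout, DE680, DE684 and DE689 for the control), and which control was the homozygous mouse is not stated. Cells came from epidermis scraped off the dermis after trypsin and dispase; the labels name no sort for keratinocytes.

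Small leucine-rich proteoglycans are secreted proteins with a core of leucine-rich repeats, and most of them carry glycosaminoglycan chains. In skin they are known mainly as products of dermal fibroblasts that bind collagen fibrils and set fibril spacing and diameter. Decorin, with a chondroitin or dermatan sulfate chain, also binds transforming growth factor beta and receptor tyrosine kinases. Gpr161 encodes a ciliary receptor that restrains Hedgehog signalling.

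Library totals lay between 17157864 (DE685) and 25344399 (DE689) estimated counts. Levels are in CPM, counts scaled to the library total with TMM factors, and 3 counts equal 0.117 to 0.173 CPM. Counts and intervals from counts cover counting error only. The labels give no litter, batch or day. SDs measure the spread between these 3 libraries per group. Each SE of a log2 difference comes from the edgeR fit, which estimates spread with the help of all tested genes, and covers these libraries only. Whole-gene counts of Gpr161 did not separate the groups and so did not check the labels, at 25.9 to 33.6 CPM in knockout and 30.2 to 32.2 CPM in control libraries. Gli1, a Hedgehog target, had 66.7 to 74.5 against 8.25 to 9.96 CPM (log2 difference 2.93, SE 0.10, edgeR quasi-likelihood adjusted p 1.77e-05). DE685 in the knockout and DE684 in the control carried Y-linked transcripts, and the other 4 libraries had at most 3 such counts. Of the 15422 tested genes, 1.6% passed an edgeR adjusted p of 0.05, 1.24% as higher and 0.357% as lower in the knockout. An unadjusted p under 0.05 was reached by 2931 of them, 19%, the share against which the counts at an unadjusted p in the gene lists are to be read. Without regard to a test, 25.6% of these genes had CPM ranges that were apart between the groups, and 12.8% were apart and higher in the knockout.

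Dcn was several-fold higher in every knockout library than in any control library. DE679, DE685 and DE688 gave 122, 112 and 123 CPM, from 2873, 1938 and 3171 counts. DE680, DE684 and DE689 gave 20.8, 40.6 and 34.4 CPM, from 469, 925 and 867 counts. The lowest knockout library was 2.76-fold above the highest control library. Knockout libraries averaged 119 ± 6.19 CPM and controls 31.9 ± 10.1 CPM (SD, n = 3), a 3.73-fold ratio and a log2 difference of 1.90 (SE 0.21). The knockout libraries lay close together, with a coefficient of variation of 5.20%, while the control libraries varied by 31.7%. In the order of log2 differences over all genes tested, Dcn was number 68 from the top. Dcn lies on chromosome 10 (97479609 to 97518143, plus strand, GRCm38), and none of its exons overlaps those of another annotated gene.

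**Figure D1:**
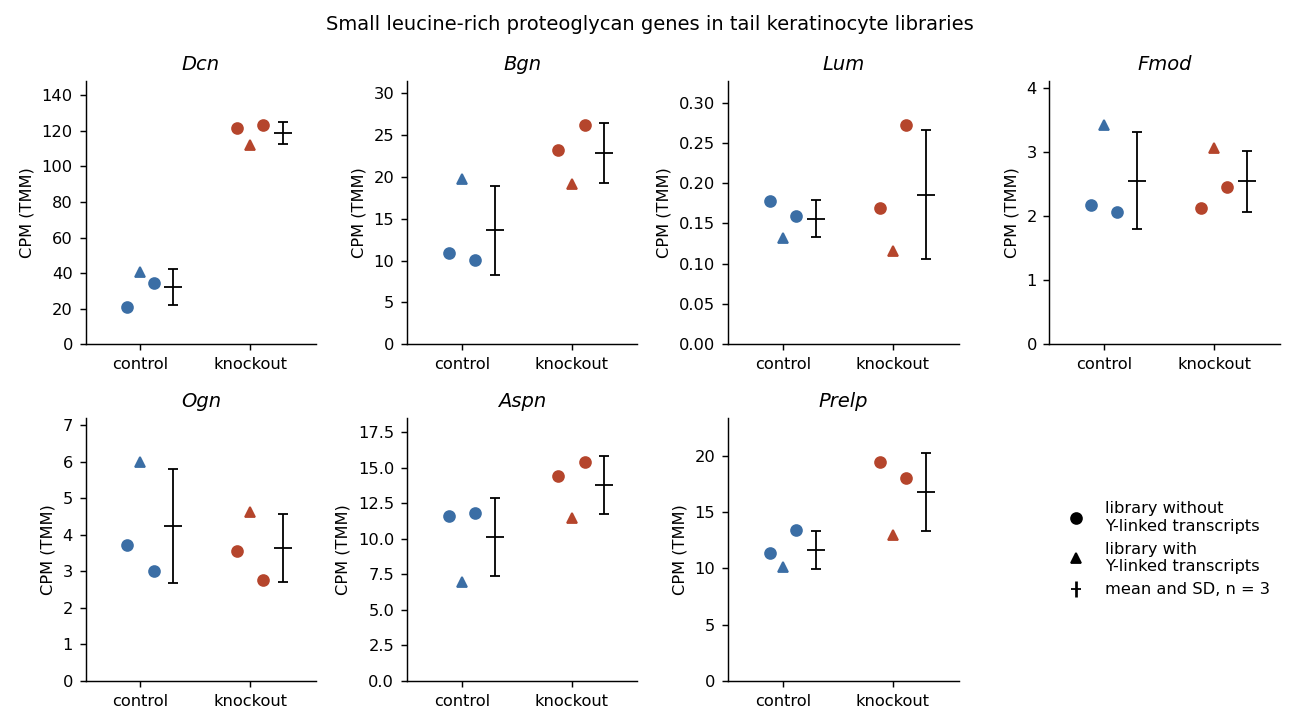
CPM of each member (vertical axis, starting at 0, own scale per gene) in the 3 control (blue) and 3 knockout (red) libraries; bars show the mean and SD, n = 3, and triangles mark the libraries with Y-linked transcripts. Dcn is the member whose groups do not overlap, at 112 to 123 against 20.8 to 40.6 CPM.

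Of the 7 members, 1 was among the genes with an adjusted p under 0.05 and 1 had groups that did not overlap, in both cases Dcn, the gene that chose the set. Over all genes tested these shares were 1.6% and 25.6%, with 12.8% apart and higher in the knockout. The filter on low counts was passed by 6 members; Lum was not tested. Biglycan and asporin, the closest relatives of decorin in the same class, had higher means in the knockout with overlapping groups. Bgn, which usually carries a pair of chondroitin or dermatan sulfate chains, had 23.2, 19.1 and 26.2 CPM across DE679, DE685 and DE688, and 11.0, 19.7 and 10.1 CPM across the controls DE680, DE684 and DE689. One control library, DE684, therefore reached the level of the lowest knockout library. The Bgn means were 22.8 ± 3.56 and 13.6 ± 5.33 CPM (SD, n = 3 each), a log2 difference of 0.75 (SE 0.25). Bgn lies on the X chromosome (73483602 to 73495933, plus strand).

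Asporin binds collagen and lacks the glycosaminoglycan chain of its relatives. Aspn had 14.4, 11.5 and 15.4 CPM across DE679, DE685 and DE688, and 11.6, 6.98 and 11.8 CPM across the controls DE680, DE684 and DE689. The lowest knockout library lay just below the 2 higher control libraries. The means were 13.8 ± 2.05 and 10.1 ± 2.73 CPM (SD, n = 3 each), a log2 difference of 0.45 (SE 0.21). Aspn lies on chromosome 13 (49544443 to 49567565, plus strand) and shares 7 exon bases with Cenpp on the opposite strand.

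The keratan sulfate class, lumican, fibromodulin and PRELP, showed no common direction. Lum, a collagen-binding proteoglycan abundant in dermis, was almost uncounted. DE679, DE685 and DE688 held 4, 2 and 7 counts, and DE680, DE684 and DE689 held 4, 3 and 4. The group totals were 13 and 11 counts, a depth-adjusted ratio of 1.25 with an exact 95% interval from 0.517 to 3.09. A Lum difference of the size of that of Dcn lies above this interval, as far as counting error goes, and smaller differences were not detectable at this depth. Fmod, which binds collagen I and modulates fibril assembly, had 2.12, 3.06 and 2.45 CPM in DE679, DE685 and DE688 and 2.17, 3.42 and 2.06 CPM in DE680, DE684 and DE689. Its means were 2.54 ± 0.478 and 2.55 ± 0.755 CPM (SD, n = 3 each), a log2 difference of −0.01 (SE 0.28).

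Prelp, which links basement membranes to the underlying matrix, had 19.5, 12.9 and 18.01 CPM across DE679, DE685 and DE688, and 11.4, 10.1 and 13.4 CPM across the controls DE680, DE684 and DE689. DE685 lay just below the highest control library and the other knockout libraries lay above all controls. The means were 16.8 ± 3.44 and 11.6 ± 1.70 CPM (SD, n = 3 each), a log2 difference of 0.53 (SE 0.18). Exons of Prelp share 350 bases, 9.68% of their length, with Gm15851 on the opposite strand, and whether strand was used in counting is not given in the sources used here, so its counts are uncertain to that extent. Osteoglycin, also called mimecan, belongs to another class of the family. Ogn had 3.56, 4.62 and 2.76 CPM across DE679, DE685 and DE688, and 3.73, 6.01 and 3.01 CPM across the controls DE680, DE684 and DE689, a log2 difference of −0.23 (SE 0.31), and its groups overlapped. Without DE684 the difference was 0.11, so its sign rested on that library. The sign for Fmod also changed with the library left out, between −0.16 without DE685 and 0.26 without DE684.

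Set against its relatives within each library, Dcn stood apart from all 6. The ratio of Dcn to Bgn counts was 4.70 to 5.85 in the knockout and 1.90 to 3.40 in the control. The ratio of Dcn to Aspn counts was 7.99 to 9.74 in the knockout and 1.80 to 5.82 in the control. These within-library ratios need no scaling between libraries. For each of the 6 relatives, the lowest ratio in a knockout library exceeded the highest in a control library. Each ratio contains Dcn, the gene that chose the set, so the ratios are descriptions and no separate support. The ratio to Lum rests on 2 to 7 Lum counts per library. The log2 difference of Dcn exceeded that of Bgn by 1.15, Prelp by 1.36, Aspn by 1.45, Fmod by 1.91 and Ogn by 2.12. Dcn made up 65.4% to 68.6% of the members' summed counts in the knockout and 34.2% to 46.7% in the control. The other 6 members together had 51.4 to 65.2 CPM in knockout and 40.0 to 46.4 CPM in control libraries, so their sum was also higher in each knockout library, by a smaller margin than Dcn.

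**Figure D2:**
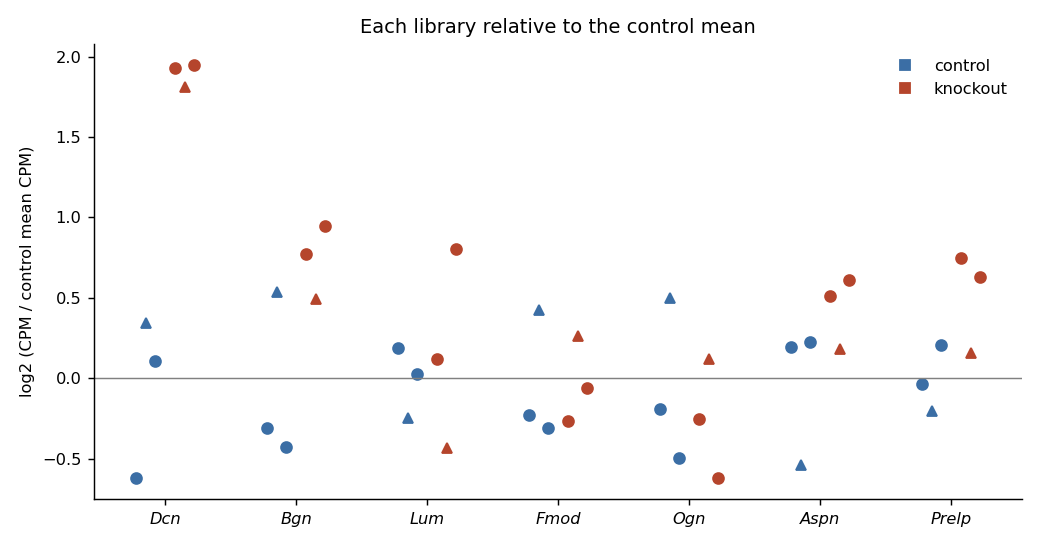
Log2 of each library's CPM over the control mean (vertical axis) for the 7 members; blue points are control and red points knockout libraries, and triangles are those with Y-linked transcripts. Knockout libraries lie 1.81 to 1.95 above the control mean for Dcn and 0.49 to 0.95 above it for Bgn, while for Fmod and Ogn they lie on both sides of it.

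Per kilobase of annotated exon, Dcn had the highest mean of the family in both groups. In the control library DE680, Aspn with 4.92 stood above Dcn with 3.56 CPM per kb. In the knockout it had 20.4 ± 1.06 CPM per kb, followed by Aspn with 5.86 ± 0.870, Prelp with 4.65 ± 0.952, Bgn with 3.75 ± 0.584, Ogn with 1.42 ± 0.363, Fmod with 0.770 ± 0.144 and Lum with 0.0759 ± 0.0325 (SD, n = 3). In the control the order was the same but the leading genes lay closer, with 5.47 ± 1.73 CPM per kb for Dcn, 4.30 ± 1.16 for Aspn, 3.22 ± 0.469 for Prelp and 2.23 ± 0.874 for Bgn (SD, n = 3). Control ranges overlapped between each pair of neighbours from Dcn down to Ogn. In the knockout, Aspn overlapped Prelp and Prelp overlapped Bgn, and Dcn was apart from every other member. Ogn, Fmod and Lum were apart from one another in both groups. Exon length was merged over all annotated transcripts, at 5.838 kb for Dcn, 6.099 kb for Bgn and 2.354 kb for Aspn. The order per kb depends on these lengths. In CPM, Bgn stood above Prelp and Aspn, with means of 22.8, 16.8 and 13.8 in the knockout and 13.6, 11.6 and 10.1 in the control.

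The margin over the controls differed between libraries with and without Y-linked transcripts. In the 4 libraries without Y-linked transcripts, the groups were apart and higher in the knockout for Dcn, Bgn, Aspn and Prelp, 4 of 7 members, beside 25.2% of tested genes with 2 libraries per group. The ratio of means in these libraries was 4.44 for Dcn, 2.34 for Bgn, 1.51 for Prelp and 1.28 for Aspn. In the pair of libraries with Y-linked transcripts, a single knockout and a single control, the ratio was 2.76 for Dcn, 1.65 for Aspn and 1.28 for Prelp, and 0.968 for Bgn. The Bgn difference was 1.23 on the log2 scale (SE 0.13) without this pair, against 0.75 with all 6 libraries. Leaving out DE685 alone also put 4 of 7 members apart, where 19.9% of tested genes were apart and higher. Whether the difference of Bgn depends on sex was not tested.

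The members also varied against one another across libraries. DE684 and DE685, the libraries with Y-linked transcripts, were the highest of all 6 for Fmod and Ogn and the lowest of their group for Aspn, Prelp and Lum. Over the 6 libraries, Pearson's r of log2(CPM + 1) was 0.83 between Fmod and Ogn, 0.87 between Aspn and Prelp and −0.87 between Ogn and Aspn. Without DE684 these were 0.61, 0.93 and −0.60. Dcn had an r of 0.85 with Bgn, 0.74 with Prelp, 0.51 with Aspn, 0.15 with Fmod and −0.17 with Ogn. After subtracting the group means, r with Dcn was 0.61 for Bgn, 0.05 for Prelp and −0.51 for Aspn. These values describe 6 libraries that share scaling and group, and carry no test.

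The genes of this family lie in clusters, and Dcn and its nearest neighbour differed widely in level. Lum starts 47.0 kb after the end of Dcn on chromosome 10 (97565128 to 97572703, plus strand). Per kb, the level of Dcn was 190 to 406 times that of Lum in the knockout libraries and 49.2 to 129 times in the control libraries, with at most 7 Lum counts in a library. Btg1, an antiproliferative gene, lies 856.8 kb away on the other side of Dcn. It averaged 356 ± 21.8 CPM in knockout and 390 ± 24.3 CPM in control libraries (SD, n = 3) (log2 difference −0.13, SE 0.07, edgeR adjusted p 0.365). On chromosome 13, Ogn (49608046 to 49624501) starts 40.5 kb after the end of Aspn. With all 6 libraries the pair had log2 differences of opposite sign, but without DE684 that of Ogn was 0.11. On chromosome 1, Fmod (134037254 to 134048277, plus strand) lies 115.8 kb from Prelp (133910304 to 133921414, minus strand). Of 13 listed genomic neighbours of the members, 9 were tested and 0 had an edgeR adjusted p under 0.05, with 1 at an unadjusted p under 0.05. Their median log2 difference was 0.12, beside −0.0036 over all genes tested.

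Other members of the wider family were few in these cells. Of 11 further small leucine-rich proteoglycans and close relatives, 4 were tested, and 0 had an edgeR adjusted p under 0.05, with 2 at an unadjusted p under 0.05. Their median log2 difference was 0.38. Podn, podocan, had 7.21, 9.07 and 13.1 CPM in the knockout libraries against 5.24, 4.83 and 6.47 CPM in controls (log2 difference 0.83, SE 0.24, edgeR adjusted p 0.132). Tsku, tsukushi, a secreted modulator of growth factor signals, had 22.9, 21.1 and 17.5 CPM against 14.8, 14.8 and 12.8 CPM (log2 difference 0.54, SE 0.12, edgeR adjusted p 0.0886). Both were apart between groups, and with DESeq2 the adjusted p was 0.0237 for Podn and 0.0126 for Tsku.

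Among 20 tested genes that build the chondroitin and dermatan sulfate chains carried by decorin and biglycan, 2 rose and 0 fell, with 7 at an unadjusted p under 0.05 and a median log2 difference of 0.10. Chst11, a chondroitin sulfotransferase, had 12.89, 12.997 and 21.35 CPM in DE679, DE685 and DE688 against 4.70, 4.83 and 4.28 CPM in DE680, DE684 and DE689. All knockout libraries lay above all controls (log2 difference 1.78, SE 0.22, edgeR adjusted p 0.0116). The adjusted p was 0.0599 without DE680 and 0.0509 without DE689. Csgalnact1, which starts the chondroitin chain, had 14.97, 14.56 and 14.82 CPM against 7.81, 9.04 and 5.32 CPM (log2 difference 1.00, SE 0.19, edgeR adjusted p 0.0469). This call was lost when any library but DE684 was left out, with adjusted p from 0.0509 to 0.168, and it was also lost when every counted gene was tested (0.0540), when genes had to average 1 CPM (0.0505) and in the 4 libraries without Y-linked transcripts (0.0868). Fam20b, the kinase of the linkage region, had 155 ± 8.03 and 153 ± 3.70 CPM (SD, n = 3 each; log2 difference 0.02, edgeR adjusted p 0.877). Of 7 tested genes of keratan sulfate synthesis, the chain type of the lumican and fibromodulin class, 0 passed the edgeR test and 2 had an unadjusted p under 0.05, with a median log2 difference of −0.11. B3gnt2, which extends such chains, had a log2 difference of −0.46 (SE 0.11, edgeR adjusted p 0.0989), with every knockout library below every control library. With DESeq2 its adjusted p was 0.0138.

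**Figure D3:**
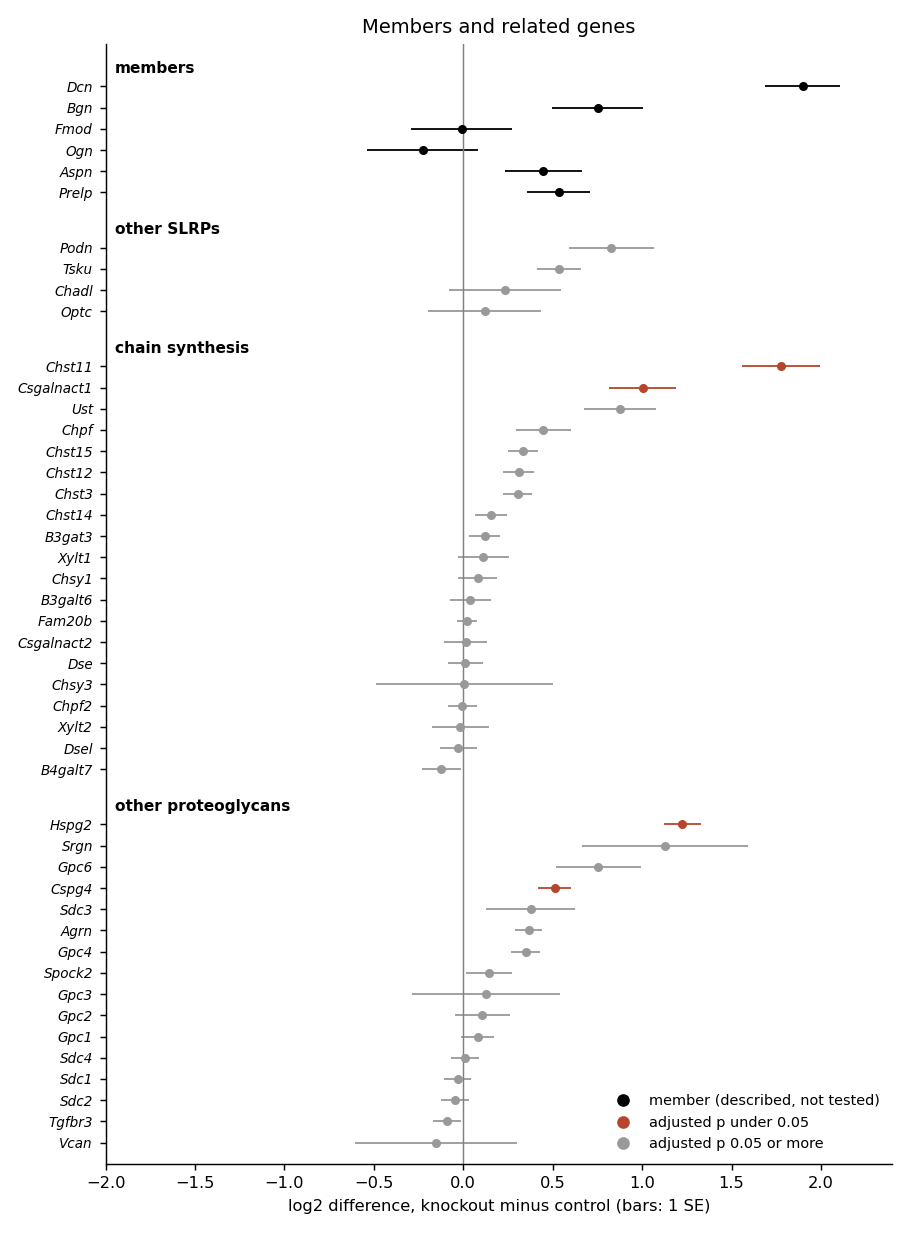
Log2 difference between knockout and control (horizontal axis) with bars of 1 SE, for the members, other small leucine-rich proteoglycans, enzymes of chondroitin and dermatan sulfate synthesis and other proteoglycans; members are in black without a test and red marks an edgeR adjusted p under 0.05. Dcn lies at 1.90, Chst11 at 1.78 and Hspg2 at 1.22.

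Of 16 tested proteoglycans outside the family, 2 rose and 0 fell, with 6 at an unadjusted p under 0.05 and a median log2 difference of 0.13. Hspg2, perlecan, a basement membrane proteoglycan, had 216, 223 and 241 CPM in the knockout libraries against 95.3, 112 and 84.2 CPM in controls (log2 difference 1.22, SE 0.10, edgeR adjusted p 0.00241). It passed in every alternative and with each library left out. Cspg4, a transmembrane chondroitin sulfate proteoglycan, had 156, 144 and 176 CPM against 101, 120 and 113 CPM (log2 difference 0.51, SE 0.09, edgeR adjusted p 0.0427). That call was lost with any library left out, at adjusted p from 0.0585 to 0.150, and in the 4 libraries without Y-linked transcripts (0.0638). Sdc1, syndecan 1, the main cell surface heparan sulfate proteoglycan of keratinocytes, had a log2 difference of −0.03 (SE 0.07, edgeR adjusted p 0.859).

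The collagens that these proteoglycans bind did not pass the test without a covariate. Of 11 tested, 0 had an edgeR adjusted p under 0.05 and 4 had an unadjusted p under 0.05, with a median log2 difference of 0.13. Col1a1, the main fibrillar collagen of dermis, had 4.71, 5.03 and 6.46 CPM in DE679, DE685 and DE688 against 4.79, 12.6 and 3.81 CPM in DE680, DE684 and DE689 (log2 difference −0.38, SE 0.43, edgeR adjusted p 0.663). DE684 was the highest library for Col1a1, Col1a2 and Col3a1. Col6a1, a chain of the microfibrillar collagen VI, had a log2 difference of 0.37 (SE 0.20, edgeR adjusted p 0.350). With sex as a covariate Col6a1 had a difference of 0.39 (SE 0.07, edgeR adjusted p 0.0417). Col5a1, which helps nucleate collagen fibrils, had a log2 difference of 1.07 (SE 0.24, edgeR adjusted p 0.0804). Of 18 tested receptors and ligands bound by decorin or biglycan, 0 passed the edgeR test and 6 had an unadjusted p under 0.05. Egfr, a receptor that decorin binds, had a log2 difference of −0.03 (SE 0.08, edgeR adjusted p 0.876), and the endocytic receptor Lrp1 had −0.02 (SE 0.06, edgeR adjusted p 0.871). Of 11 tested proteases that cleave these proteoglycans, 0 passed the edgeR test and 3 had an unadjusted p under 0.05. Mmp2 had a log2 difference of 0.34 (SE 0.15, edgeR adjusted p 0.283).

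Because dermal fibroblasts are the usual source of decorin, fibroblast markers were read beside it. In whole preparations, more cells of a type and more RNA per cell cannot be told apart. Of 15 tested fibroblast markers, 2 rose and 0 fell, with 4 at an unadjusted p under 0.05 and a median log2 difference of −0.06. Postn had 874, 762 and 841 CPM against 526, 408 and 543 CPM (log2 difference 0.75, SE 0.11, edgeR adjusted p 0.0253); it also stands in the hair follicle stem cell list. Fbln1 had 46.4, 36.8 and 46.1 CPM against 24.7, 29.5 and 22.9 CPM (log2 difference 0.75, SE 0.13, edgeR adjusted p 0.0384). Each of these calls was lost in 4 of the 6 fits with a library left out. Thy1 had 49.3, 43.7 and 36.6 CPM against 24.3, 18.8 and 28.6 CPM, with groups apart (log2 difference 0.85, SE 0.17, edgeR adjusted p 0.0560). Of the 15 markers, 7 had a positive log2 difference. In the knockout, 4 were apart and higher and 1 was apart and lower, beside 12.8% of all tested genes apart and higher. Other markers had negative differences. Sparc, a collagen-binding matrix protein, had 183, 250 and 160 CPM against 239, 394 and 230 CPM, with overlapping groups (log2 difference −0.54, SE 0.24, edgeR adjusted p 0.267), and its adjusted p was 0.0175 with sex as a covariate. Fbn1, the microfibril protein fibrillin 1, had 1.31, 1.16 and 0.856 CPM against 1.77, 3.03 and 1.82 CPM (log2 difference −0.99, SE 0.32, edgeR adjusted p 0.166). The summed markers gave 1135 to 1211 CPM in knockout and 864 to 928 CPM in control libraries. Without Postn the sums overlapped, at 302 to 373 CPM and 321 to 520 CPM. Most of that remaining sum was Sparc, at 160 to 250 CPM in knockout and 230 to 394 CPM in control libraries. The marker sums are therefore weighted toward Postn and Sparc, and sums without both genes were not compared. Markers of the dermis were low: Dpt had 1 to 8 counts per library and Pdgfra 14 to 41. Per kb, the level of Dcn was 21.5 to 29.1 times that of Col1a1 in the knockout libraries and 3.62 to 10.2 times in the control libraries. DE684, the control with the most Col1a1, Col1a2 and Pdgfra counts, had the highest Dcn level among the controls. DE680 had more Col1a1 (108 against 96), Col3a1 (119 against 76) and Pdgfra (20 against 15) counts than DE689, with Col1a2 at 124 and 125. Its Dcn level was lower, at 20.8 against 34.4 CPM. The knockout libraries had fewer Col1a1 counts than DE684, 87 to 166 against 287, and higher Dcn levels. The part of fibroblast content in the Dcn difference was not tested.

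**Figure D4:**
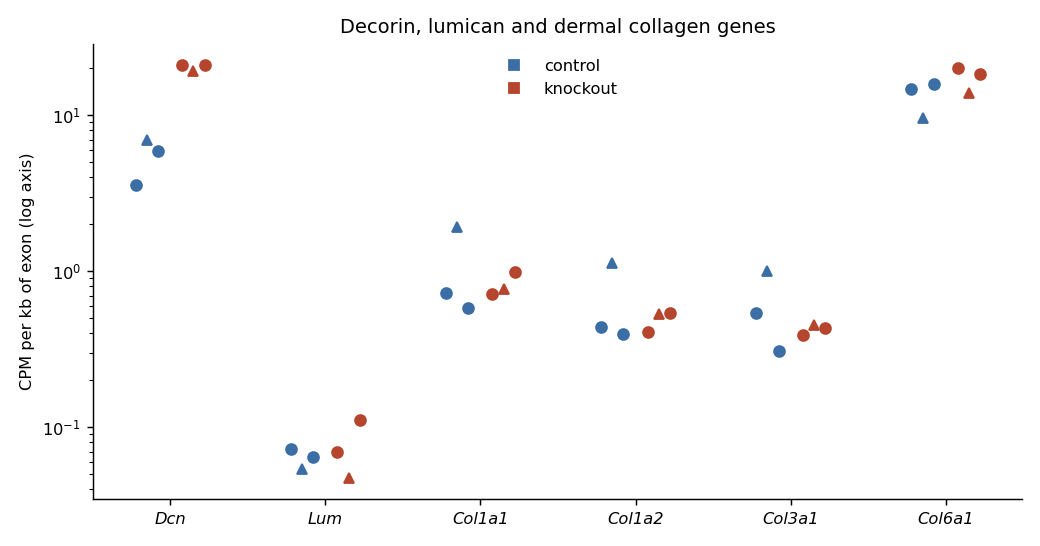
CPM per kb of exon (log axis) for Dcn, Lum and 4 collagen genes in the 3 control (blue) and 3 knockout (red) libraries; triangles mark libraries with Y-linked transcripts. Dcn separates the groups, at 19.2 to 21.1 against 3.56 to 6.95, while Col1a1, Col1a2 and Col3a1 overlap and are highest in the control DE684.

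Markers of other cells gave few calls. None of 8 melanocyte markers passed the edgeR test (3 at an unadjusted p under 0.05; Pmel had an adjusted p of 0.0365 with DESeq2), yet all 8 had a positive log2 difference, with summed levels of 86.5 to 127 CPM in knockout and 59.4 to 87.0 CPM in control libraries. The 9 tested immune markers were likewise all positive with 0 passing the edgeR test and 0 at an unadjusted p under 0.05, and their sums overlapped. All 10 markers of differentiated keratinocytes had a negative log2 difference (median −0.31), 0 passed the edgeR test and 6 had an unadjusted p under 0.05. Of 8 basal keratinocyte markers, 6 had a positive log2 difference (median 0.14), 0 passed the edgeR test and 3 had an unadjusted p under 0.05. Among them, 4 were apart and higher in the knockout, beside 12.8% of all tested genes. Of 13 hair follicle stem cell markers, 3 rose, Nfatc1 (log2 difference 0.95), Foxc1 (0.67) and Postn. In this list 6 had an unadjusted p under 0.05 in the edgeR test and 5 were apart and higher. The Foxc1 call was lost in 3 of the 6 fits with a library left out. In the 4 libraries without Y-linked transcripts, the edgeR adjusted p was 0.0638 for Nfatc1 and 0.0922 for Foxc1. Hedgehog targets that rose included Gli1, Ptch1 (log2 difference 1.58) and Gli2 (1.79). The part of these cell types in the Dcn difference was not tested.

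Genes whose pattern was most like that of Dcn were taken by Pearson's r of log2(CPM + 1) over the 6 libraries among 13664 genes. The top 6 were Naaladl2 (r 0.998), Cacna2d2 (0.997), 1700012D14Rik (0.992), Maged1 (0.990), Tbc1d16 (0.989) and Rai1 (0.989). With 126 genes at an r of 0.95 or more over only 6 libraries, these ranks are a description only. Cacna2d2, a calcium channel subunit, had 4.83, 4.51 and 4.82 CPM in the knockout libraries against 0.532, 1.27 and 0.992 CPM in controls, and its control libraries were in the same order as those of Dcn. After subtracting group means the top 6 were Kank4 (r 0.999), Cacna2d2 (0.996), Vav3 (0.993), Naaladl2 (0.991), Acot2 (0.991) and 8030462N17Rik (0.990). This r leaves out the difference between groups. Kank4, Cacna2d2 and Naaladl2 were apart and higher in the knockout. Vav3 (log2 difference −0.25) and 8030462N17Rik (−0.27) were apart and lower, and the groups overlapped for Acot2 (0.11).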

How the data were processed

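RNA from tail keratinocytes of 3 knockout and 3 control mice was sequenced after polyA selection. Per the submitters' processing notes, bcl2fastq 2.20, cutadapt 1.18, STAR 2.7.0f and Partek were used with mm10. The deposited table holds estimated counts, with 53.0% to 57.7% whole values per library, and these were rounded. The design had assumed whole counts; the test is the same. The authors' second deposited table, a normalized signal, served as an alternative only. Column names show the group but not the sample. Genes kept by the default low-count filter of edgeR (filterByExpr) were tested with edgeR 4.0.16 (TMM, quasi-likelihood, Benjamini-Hochberg over 15422 genes, threshold 0.05) in R 4.3.3. The fit was tested on simulated data. DESeq2 1.42.0 and limma 3.58.1 gave alternatives. Exon lengths, merged over all annotated transcripts of a gene, and positions come from GENCODE on GRCm38, with 19100 of 19618 genes matched. Members and lists were chosen with earlier results of these data known. Named genes are the members, up to 4 list genes past the threshold, the 2 most abundant per list and the 6 most like Dcn; others named were chosen after their values were seen.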

Additional observations from a re-analysis of the deposited data

How the results depend on the processing

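The Dcn difference kept its direction in every alternative, between 1.67 and 2.10 with a library left out and between 1.89 and 2.15 otherwise. The members with groups apart numbered 1 to 4 with a library left out, and 4 without DE684 and DE685, all higher in the knockout. Over all genes tested, 15.9% to 19.9% were apart and higher with a library left out, and 25.2% without that pair. The Bgn difference was 1.23 in those 4 libraries. The 247 genes past the threshold became 864 with DESeq2 (559 higher and 305 lower, beside 192 and 55), 409 with sex as a covariate, 87 in the libraries without Y-linked transcripts and 69 to 121 with a library left out. The 12 list genes past the threshold became 37, 22, 7 and 6 to 10. The cause was not tested. No paired analysis was possible because the columns carry no replicate numbers. With 3 libraries per group, small differences of Fmod, Ogn and Lum were not detectable at this depth.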
